A study of Mus musculus with 6 samples.

Results

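Snai1 encodes SNAIL, a zinc-finger transcription factor, and the positions described here are those of its mRNA at which N6-methyladenosine (m6A) was called by Nanopore direct RNA sequencing. Within the gene they were chosen by location alone, but the study had already named Snai1 for its m6A in the same data. All listed positions between bases 167380115 and 167384734 of chromosome 2, the Snai1 gene body in GRCm39 on the plus strand, were taken, which gave 9 of the 567667 rows of the deposited table. The libraries came from primary cultures of HCC initiating cells (HCICs), which the study isolated from livers of male mice that had received the carcinogen diethylnitrosamine. There were 6 samples. The 3 MTH-WT samples were Mthfd1l wildtype and the 3 MTH-D samples were Mthfd1l knockout, each group numbered 1 to 3. Mthfd1l, a mitochondrial enzyme of one-carbon metabolism that releases formate, had been targeted with CRISPR/Cas9 in 1 control line and 2 lines from double knock-in mice, which carry alleles of Mdm2 and Mdmx that weaken the activation of p53. All 6 samples carry the same batch number in the labels. The study describes a knockout with only a small deletion in its line HCIC-2, and it used HCIC-1 and HCIC-3 for its m6A comparison. The labels do not say which sample number is which line, so the samples numbered 1 and 3 are also given alone, without knowing that they are those lines. The table holds m6A levels and no expression, so neither the cell type nor the loss of Mthfd1l could be checked in it. Every comparison below is given over all 6 samples and within each same-numbered pair.

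SNAIL is a repressor best known for silencing E-cadherin during epithelial-mesenchymal transition, and its mRNA and protein are both short-lived. m6A is written on mRNA by the METTL3-METTL14 complex, which uses S-adenosylmethionine as the methyl donor and acts on an adenosine in the sequence context DRACH, that is NNACN with A, G or T first, A or G second and A, C or T last. The mark is most common near stop codons and in 3′ untranslated regions (3′-UTRs), where reader proteins of the YTH and IGF2BP families bind it and change the decay or the translation of the mRNA. Formate from MTHFD1L feeds the methionine cycle that makes S-adenosylmethionine, and the study sequenced these libraries to test whether MTHFD1L acts in HCC initiation through RNA m6A.

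The gene assignment was checked by sequence. The spacing of the 9 positions was compared with the spacing of DRACH adenosines in mouse transcripts of GENCODE M21. Of its 141767 transcripts, 115413 were long enough to be compared. All 9 fell on such adenosines in the Snai1 transcript and in no other gene, and any other gene matched at most 6 of them. The distance of each position to the end of the GRCm39 gene body equalled its distance to the end of the transcript for 9 of 9. Since the spacing had already been matched, this is 1 agreement and not 9. In this 1621-base transcript with 3 exons, all 9 sites lay in the 3′-UTR of 731 bases, within the last exon. They are called S1 to S9 here in 5′ to 3′ order. The sites below are printed with 4 bases on either side of the motif, because the levels of the sites with the same motif differed. The sequences are those of the GENCODE M21 transcript, whose own genome build is GRCm38. The coordinates are those of the deposited table in GRCm39, counted from 1. The capitals mark the DRACH motif, whose middle base is the methylated adenosine.

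S1, chromosome 2 position 167384067, 64 bases after the stop codon: gccaGGACTcctt
S2, position 167384225, 222 bases after the stop codon: ctctGGACAcagc
S3, position 167384248, 245 bases after the stop codon: cataGAACTaaag
S4, position 167384294, 291 bases after the stop codon: caggGGACCccac
S5, position 167384320, 317 bases after the stop codon: tcaaGGACCcttc
S6, position 167384395, 392 bases after the stop codon: gctgTAACCatgc
S7, position 167384487, 484 bases after the stop codon: ctggTGACAcctg
S8, position 167384509, 506 bases after the stop codon: agttTAACTgtct
S9, position 167384524, 521 bases after the stop codon: gaagGGACCatga

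The listed sites spanned 457 bases, with gaps of 15 to 158 bases between neighbours. On the same chromosome, the nearest listed position lay 26052 bases before S1 and 65299 bases after S9. The transcript holds 26 DRACH motifs on its own strand, of which 2 are in the 5′-UTR, 9 in the coding region and 15 in the 3′-UTR. Values were thus listed for 9 of 15 motifs of the 3′-UTR and for 0 of 9 motifs of the coding region. The 3′-UTR had 2.05 such motifs per 100 bases, against 2.07 over all transcripts. The filter that decided which positions were listed is not given in the sources used here, so a motif without a value is not known to lack m6A.

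The Snai1 3′-UTR was heavily methylated in MTH-WT HCICs at 5 sites and listed at 8.33% or less in every MTH-WT sample at 3 others. The 5 sites S1, S2, S3, S5 and S9 averaged 15% or more over the 6 samples, which was 55.6% of the Snai1 sites against 11.4% of all rows in the table. The rows were not sorted by region, so Snai1 was not compared with other 3′-UTRs. S1 was the most methylated, at 77.8%, 70% and 73.7% in the MTH-WT samples numbered 1, 2 and 3. Its mean of 73.8% ± 3.89 (SD, n = 3) was followed by S3 at 65.1% ± 9.32, S2 at 51.2% ± 3.62, S5 at 44.4% ± 9.62 and S9 at 33.0% ± 10.1. The ranges of S1 and S3 overlapped in MTH-WT, as did those of S2 and S5 and those of S5 and S9, so these neighbours were not separated beyond their spread. S3 lay above S2 in every MTH-WT sample without overlap of the ranges. S9 was the lowest of the 5 sites in all 6 samples, whereas the highest site was S1 in 3 samples, S3 in the MTH-WT sample numbered 3 and the MTH-D sample numbered 2, and S2 in the MTH-D sample numbered 1.

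The other 4 sites averaged under 15% in both groups. S4 was listed at 8.33% in the MTH-WT sample numbered 2 and at 0 in the other 5. S6 was listed at 5% in the MTH-WT sample numbered 3 and at 0 elsewhere. S7 was listed at 9.52% in the MTH-D sample numbered 1 and at 0 elsewhere. S8 was between these sites and the methylated ones, at 0, 25% and 5.88% in the MTH-WT samples numbered 1 to 3 and at 0, 18.8% and 10% in the MTH-D samples. It averaged 9.94% over the 6 samples and was the nearest site under 15%, while S9, with 25.4% over the 6 samples, was the nearest above. The ranges of S8 and S9 overlapped. In MTH-D, S8 was above S9 in the samples numbered 2 (18.8% against 18.2%) and 3 (10% against 8.33%). It was below S9 in the MTH-D sample numbered 1 (0 against 27.3%). The 4 low sites all had at least 1 value of exactly 0, as did 0 of the 5 methylated sites. Over the table, 64.0% of rows had at least 1 fraction of exactly 0 or 1, the lowest and highest possible levels. No Snai1 value was at the highest possible level, since the largest was 83.3%. The smallest value above 0 at any Snai1 site was 5%, whereas it was 0.01% over the table. Such coarse Snai1 values are what few reads per value would give, which was not tested. The table gives no coverage beside the fractions, so no interval could be set around a Snai1 level. A value of 0 therefore does not show that m6A was absent.

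The motif of all 5 methylated sites began with G, as did that of 1 of the 4 low sites. Over all transcripts, 34.1% of DRACH motifs begin with G, but in the Snai1 3′-UTR 11 of 15 do. Most motifs of this region thus begin with G, but those of the low sites S6, S7 and S8 do not. An excess of G among the methylated sites over this local share was not tested. Sites with the same motif differed, since S4, S5 and S9 share GGACC and averaged 1.39%, 41.4% and 25.4% over the 6 samples. Of the 11 motifs beginning with G in the 3′-UTR, 5 had no listed value.

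**Figure D1:**
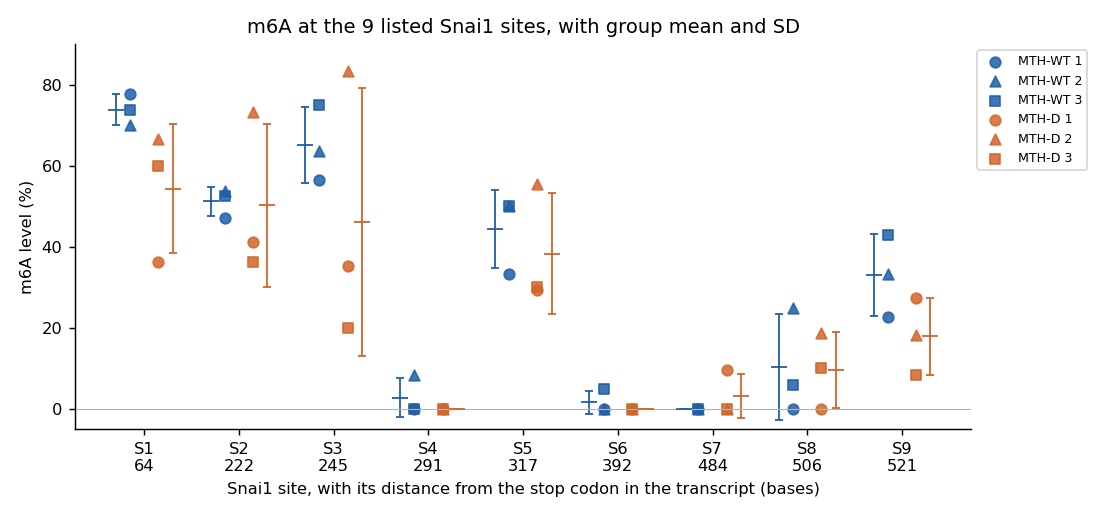
m6A level in percent at each Snai1 site, in 5′ to 3′ order with the distance from the stop codon in bases under each name, for the 3 MTH-WT samples (blue) and the 3 MTH-D samples (orange). Circles, triangles and squares are the samples numbered 1, 2 and 3, and the bars give the group mean and SD. At S2, S3 and S5 the MTH-D sample numbered 2 lies above all MTH-WT samples while those numbered 1 and 3 lie below them.

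The comparison of MTH-D with MTH-WT asks how the m6A level at these sites differed when Mthfd1l was targeted. At the 5 methylated Snai1 sites the mean was lower in MTH-D at 5 of 5 sites, from 0.890 points lower at S2 to 19.5 points lower at S1, where 58.7% of all table positions averaging 15% or more were also lower. At S2, S3 and S5 the mean difference was smaller than the SD of the MTH-D samples. S1 was at 36.4%, 66.7% and 60.0% in the MTH-D samples numbered 1, 2 and 3, all below the lowest MTH-WT value of 70%. Its mean was 54.3% ± 15.9 (SD, n = 3) against 73.8% ± 3.89 in MTH-WT. This was the only one of the 5 sites whose groups did not overlap (two-sided exact permutation test, p = 0.10, which 3 samples against 3 cannot go below). Of the 64590 positions in the table averaging 15% or more, 3.25% had all MTH-D samples below all MTH-WT samples, and 1.91% had them all above.

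S3 was at 35.3% and 20% in the MTH-D samples numbered 1 and 3, below the lowest MTH-WT value of 56.5%. The MTH-D sample numbered 2 was at 83.3%, above the highest MTH-WT value of 75%. MTH-WT averaged 65.1% ± 9.32 and MTH-D 46.2% ± 33.0 (SD, n = 3 each). The mean difference of -18.8 points was therefore smaller than the MTH-D spread (exact permutation test, p = 0.40).

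S9, the last listed site, was at 22.7%, 33.3% and 42.9% in MTH-WT and at 27.3%, 18.2% and 8.33% in MTH-D. It was thus the only site of the 5 at which the MTH-D sample numbered 1 was above its MTH-WT partner. The mean difference was -15.05 points, and the groups overlapped (exact permutation test, p = 0.20). S5 was at 33.3%, 50% and 50% in MTH-WT and at 29.4%, 55.6% and 30.0% in MTH-D, a mean difference of -6.12 points (exact permutation test, p = 0.80). S2 was at 47.1%, 53.8% and 52.6% in MTH-WT and at 41.2%, 73.3% and 36.4% in MTH-D. Its pair differences of -5.88, 19.5 and -16.3 points left a mean difference of -0.890 points (exact permutation test, p = 1.0).

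A level of 15% or more in MTH-WT selected the same 5 sites as the mean over the 6 samples and as the mean over MTH-D. Of these, 4 (S1, S3, S5 and S9) lay at least 5 points below MTH-WT in MTH-D and 1 (S2) did not. Over the table, 18.2% of the positions of 15% or more in MTH-WT were lower by as much. By 10 points or more, 3 of the 5 were lower, against 4.35% over the table. Positions chosen by the MTH-WT values that enter the difference favour a lower value in MTH-D, so these counts are a description with no test. With positions chosen by the mean of the 6 samples, 16.7% of the table was lower by 5 points or more, and with positions chosen by the MTH-D mean 15.1%. The study named Snai1 for its m6A in these same libraries, so its direction and its rank here are not independent evidence.

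The same-numbered pairs disagreed. In pair 3, MTH-D was lower at 5 of the 5 sites, with differences from -55.0 to -13.7 points, and by 5 points or more at 5 of 5, against 62.6% and 31.6% of the table positions averaging 15% or more. In pair 1, MTH-D was lower at 4 of 5 sites, and at 3 of them by 5 points or more, against 59.4% and 28.4% of the table. In pair 2, MTH-D was lower at 2 of 5 sites, S1 and S9, and by 5 points or more at 1, against 43.2% and 19.7%.

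S3 had the widest differences between pairs, -21.2 points in pair 1, 19.7 points in pair 2 and -55.0 points in pair 3. S1 differed by -41.4, -3.33 and -13.7 points in pairs 1 to 3, and was the only one of the 5 sites that was lower in all 3 pairs, as were 16.7% of the table positions averaging 15% or more. Sites S2, S3 and S5 were lower in pairs 1 and 3 and higher in pair 2, a combination held by 21.4% of those positions. Differences as low as that of S3 in pair 3 were found at 0.0108% of the table positions, and as low as that of S1 in pair 1 at 0.0666%. These were picked as the lowest differences over the 5 sites and all pairs. The table positions were not matched to them on coverage, which is unknown. On the other side, 3.10% of the table positions in pair 2 were at least as high as S3. Over pairs 1 and 3, 4 of the 5 sites were lower in both, against 38.5% of the table.

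**Figure D2:**
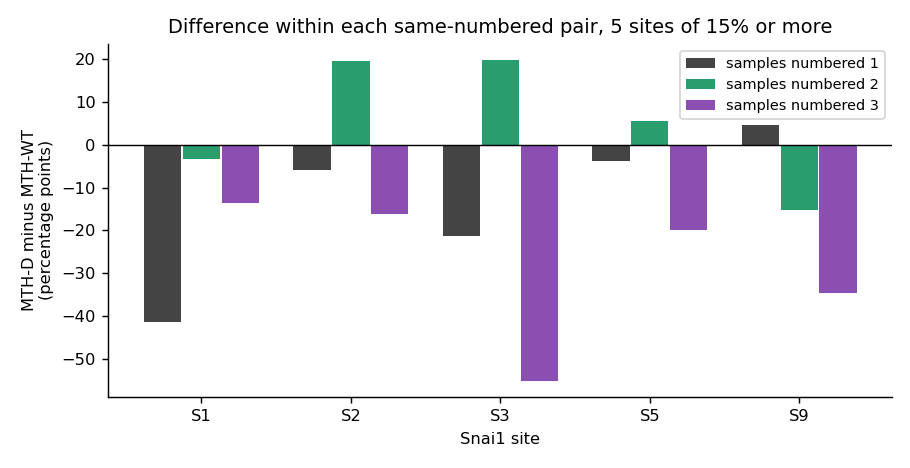
MTH-D minus MTH-WT in percentage points at the 5 Snai1 sites averaging 15% or more, with 1 bar for each same-numbered pair. The bars of the samples numbered 3 are below 0 at all 5 sites and reach -55.0 points at S3, whereas those numbered 2 are above 0 at S2, S3 and S5.

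The MTH-D samples were more dispersed at the 5 Snai1 sites than at the median position of like level. At S3 the MTH-D SD was 33.0 points, while the median MTH-D SD over the 5419 table positions within 5 points of its level was 8.32. At S1 it was 15.9 against 8.10, at S2 20.1 against 8.22, at S5 14.9 against 7.79 and at S9 9.47 against 5.95. The MTH-WT SD was 3.89 against a median of 6.75 at S1 and 3.62 against 7.04 at S2, but 9.32 against 6.97 at S3, 9.62 against 6.64 at S5 and 10.1 against 5.32 at S9. The positions compared were matched on level only and not on coverage, which is unknown. No test was made of these spreads.

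Single sites were tested with limma, fitted to all 567667 rows after conversion of the percent to log2 odds. No Snai1 site had an adjusted p under 0.05, nor did any row of the table (0.0%). The unadjusted p was under 0.05 at 1 of the 9 Snai1 sites and at 3.22% of all rows. This site was S1, with a difference of -1.22 ± 0.50 (SE) on the log2 odds scale (limma with Benjamini-Hochberg adjustment, adjusted p = 0.939). The next was S9, at -1.23 ± 0.58 (limma, adjusted p = 0.939). With the replicate number as a block the adjusted p was 0.874 at both sites, and none of the 9 sites had an unadjusted p under 0.05. S4 and S6 were lower in MTH-D on the log2 odds scale, and each rests on a value above 0 in 1 MTH-WT library. S7 was higher in MTH-D, at 1.18 ± 0.96, and rests on a value above 0 in 1 MTH-D library. S8 was at 0.08 ± 1.62.

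The mean over the 5 methylated sites gives 1 value per sample. It was 47.5%, 54.2% and 58.8% in the MTH-WT samples numbered 1 to 3 and 33.9%, 59.4% and 30.9% in the MTH-D samples. The MTH-D samples numbered 1 and 3 were below all MTH-WT samples, and that numbered 2 was above them all. The group means were 53.5% ± 5.70 (SD, n = 3) and 41.4% ± 15.7 (SD, n = 3). The difference of -12.1 points was smaller than the MTH-D spread (two-sided exact permutation test, p = 0.40). Within pairs it was -13.6, 5.25 and -27.9 points (sign-flip permutation over the 3 pairs, exact p = 0.50, with 0.25 as the lowest possible). Restricted to pairs 1 and 3, Snai1 averaged 53.2% ± 8.03 in MTH-WT, compared with 32.4% ± 2.10 in MTH-D (SD, n = 2 each). This difference of -20.7 points had an exact permutation p of 0.333, below which 2 samples against 2 cannot go.

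To keep the choice of sites apart from the values compared, sites were also chosen for each pair by the MTH-WT samples of the other pairs. The differences were then -11.3 points over 6 sites in pair 1, where S8 entered, 5.25 points over 5 sites in pair 2 and -27.9 points over 5 sites in pair 3. Over all 9 sites, the low ones included, MTH-WT averaged 31.4% ± 4.31 and MTH-D 24.4% ± 9.27 (SD, n = 3 each). This difference was -6.93 points (exact permutation test, p = 0.40).

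**Figure D3:**
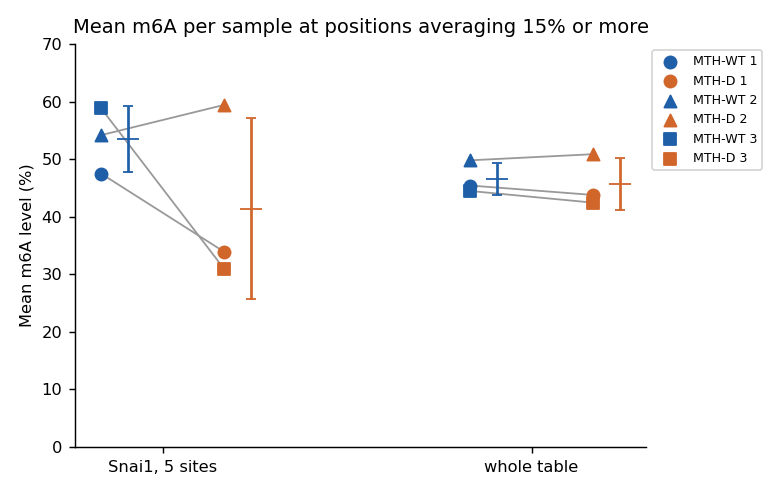
Mean m6A in percent per sample over positions averaging 15% or more, for the 5 Snai1 sites (left) and for the 64590 positions of the whole table (right). Grey lines join same-numbered samples, and the bars give the group mean and SD. The Snai1 mean goes from 58.8% to 30.9% in the samples numbered 3, whereas over the table it goes from 44.5% to 42.4%.

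In each pair the Snai1 difference had the same sign as that of the library as a whole and was larger. Over the table positions averaging 15% or more, the mean MTH-D minus MTH-WT difference was -1.64 points in pair 1, 1.06 points in pair 2 and -2.04 points in pair 3. At Snai1 the mean over its 5 sites was 2.07, 4.37 and 14.4 points above the mean of its own library in MTH-WT, and -9.87, 8.56 and -11.5 points from it in MTH-D. Relative to the library, Snai1 thus stood at -4.27 ± 11.1 points in MTH-D against 6.94 ± 6.54 points in MTH-WT (SD, n = 3 each), a difference of -11.2 points with overlapping groups (exact permutation test, p = 0.30). The pair differences relative to the library were -11.9, 4.19 and -25.9 points (exact sign-flip permutation test, p = 0.50).

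The same question was put to the whole table in bins of 1000 bases, since its rows are not paired with genes. The 5 methylated Snai1 sites made up all positions averaging 15% or more in their bin. There were 9162 bins with at least 3 such positions. Over the 6 samples, 15 of them, the Snai1 bin included, had a mean difference as low as that of Snai1 or lower. On the other side, 6 had a difference at least as far above 0. The Snai1 bin differed by -12.1 ± 5.17 points (SE, limma), and the median over all bins was -0.84 points. Its unadjusted p was 0.0255 and its adjusted p 1.00 (limma with Benjamini-Hochberg adjustment over all bins), and no bin passed an adjusted p under 0.05 (0.0%, with 92 bins at an unadjusted p under 0.05). With the replicate block the unadjusted p was 0.0631 and the adjusted p 0.895 in limma. In the samples numbered 1 and 3, the Snai1 bin was among the 3 lowest of the 9162, at -20.7 ± 4.03 points, with an adjusted p of 0.763 in limma.

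**Figure D4:**
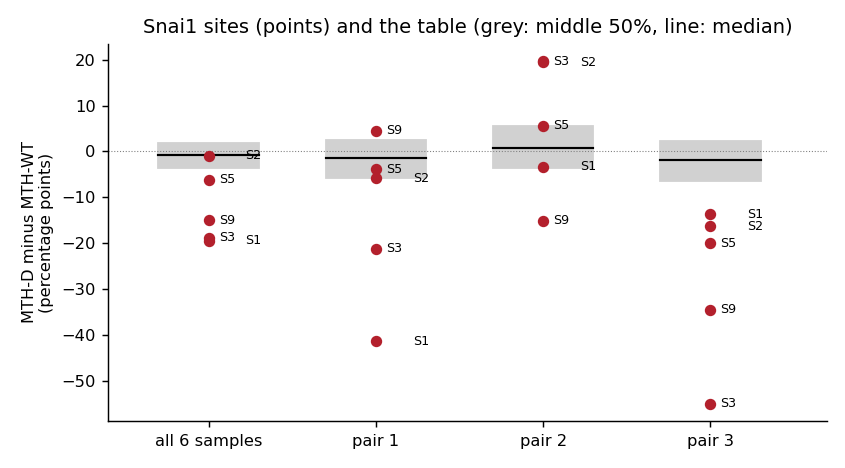
MTH-D minus MTH-WT in percentage points for the 5 Snai1 sites averaging 15% or more (red points), over all 6 samples and within each same-numbered pair. Grey boxes span the middle 50% of the 64590 table positions averaging 15% or more, and black lines are their medians. In pair 3 all 5 sites lie under the grey box, and in pair 2 S2 and S3 lie above it.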

How the data were processed

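Nanopore direct RNA libraries were sequenced for m6A (1000 ng total RNA per sample, 1 PromethION flow cell each, up to 72 h). One table was deposited by the authors, which holds the m6A level per position as a fraction (0 to 1) in 6 samples. The submitters' processing notes name minimap2 2.26, SAMtools and GRCm39. The basecaller, modification model and filters are not given in the sources used here, and coverage was not used here. Depth and precision per value are thus not given. No Snai1 value lay between 0 and 5%, as few reads per value would give, which was not tested. Positions were counted from 0 and are printed from 1.

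Samples were grouped by the genotype and number in their titles. Whether the samples are separate cultures is not stated beyond the numbers, so p-values measure only the spread between these samples. Fractions were converted to percent. Site assignment used the spacing of positions in GENCODE M21 transcripts, and no coordinate was converted between builds. Rows were tested with limma 3.58.1 (R 4.3.3) on log2 odds with 1 point added to each share and Benjamini-Hochberg adjustment over all rows, and tested on simulated data. Means per sample were compared by exact permutation tests (scipy 1.17.1). After subtraction of the group means, samples with the same number correlated at 0.164, 0.223 and 0.133 (pairs 1 to 3) over 81446 positions averaging 10% or more, and the study calls the cells paired, so the numbers were also used as a block. Snai1 sites averaging 15% or more were described in full. Genes of epithelial-mesenchymal transition, genes most like Snai1 and a DRACH filter by coordinates had been planned but were not run, since no GRCm39 annotation was used here. The Snai1 sites and lists were chosen with earlier results of these data known.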

Additional observations from a re-analysis of the deposited data

Results flagged for a closer look

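The mean over the 5 methylated Snai1 sites differed by 5.25 points (MTH-D minus MTH-WT) in the samples numbered 2, whereas MTH-D was the lower one in those numbered 1 and 3, with differences of -13.6 and -27.9 points. The samples numbered 2 stand out because they moved against the other pairs. With 1 sample per group in each pair, the difference between pairs was not tested. The table as a whole moved the same way in each pair, at 1.06, -1.64 and -2.04 points over positions averaging 15% or more in pairs 2, 1 and 3. Its part in the Snai1 differences was not tested beyond the values relative to the library.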

How the results depend on the processing

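The sign of the Snai1 difference did not change under any of the alternatives run, but its size depended on single libraries. Over the 5 methylated sites it was -12.1 points and ranged from -21.1 to -6.84 points when 1 sample was left out, the first without the MTH-D sample numbered 2 and the second without that numbered 3. Over all 9 sites it was -6.93 points, with a range of -12.3 to -3.86, and relative to the library -11.2 points, with a range of -17.6 to -7.49. Without the MTH-D sample numbered 2 the smallest p that 2 samples against 3 gave was 0.20 (exact permutation test). Over the samples numbered 1 and 3 the differences were -20.7, -11.0 and -18.9 points in the same order. With the median over sites in place of the mean they were -7.19, -14.3 and -6.02 points. With the replicate block the differences equal those without it by arithmetic (-12.1, -6.93 and -11.2 points, exact sign-flip permutation test, p = 0.50 each), which shows no stability. Thresholds of 10% and 20%, and choosing the sites by MTH-WT or by MTH-D, selected the same 5 sites.

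Limma called 0 Snai1 sites in each of its alternatives. These tested all 9 sites, except the fit to positions averaging 10% or more, which held 5 of them. The sites at an unadjusted p under 0.05 numbered 0 to 3. The 3 arose without the MTH-D sample numbered 2, when the share of all rows at that p was 5.34% against 3.22% over the 6 samples. The number of sites of 15% or more in MTH-WT that were lower by 5 points or more was 4 of 5 and ranged from 3 to 5 when 1 sample was left out. The share of such positions over the table, 18.2% over the 6 samples, was then 13.3% (without the MTH-D sample numbered 3, 3 of 5 Snai1 sites) to 38.2% (without that numbered 2, 5 of 5). Without the MTH-WT sample numbered 1 it was 24.6%, with 5 of 6 Snai1 sites, since S8 then reached 15%. Bins of 1000 bases, and pairs 1 and 3 with the block, were chosen after seeing the data. Unknown coverage limits every value at a single site.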
